A study of Mus musculus with 5 samples.

Results

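Ciliated airway cells made up 93 of the 22118 annotated cells in 5 single-cell RNA sequencing libraries of mouse lung. They are the cells that the study's authors named ciliated, within a class that also holds club cells, and no cell was added or removed here. The same libraries held 121 club cells, 1380 alveolar type 2 cells and 458 alveolar type 1 cells. A further 1734 cells, called doublets or unknown by the authors, were left out, which leaves 22118 of 23852 cells.

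All mice were female BALB/c, were 6 weeks old at the first injection, and received either control medium (CM) or tumor-secreted factors (TSF) by vein, 3 times a week for 3 weeks. TSF is medium in which pieces of mouse mammary tumors had been incubated, and CM is the same medium incubated without tumor. All mice were then given 25000 4T1 cells by vein. The 4T1 line is a mouse mammary carcinoma line, and the injected cells carried CD90.1, a variant of the surface protein Thy1 used as a tag. Lungs were taken at day 11, when mice were 10 weeks old, or at day 16, when they were 11 weeks old. Dissociated lungs of 3 mice were pooled for each group, and every group therefore carried cancer cells. TSF at day 11 was sequenced as libraries a and b, and the 3 other groups as 1 library each.

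Ciliated cells of the airway carry many motile cilia on the side that faces the air, and their beating moves mucus out of the lung. Each motile cilium has a core of microtubules driven by axonemal dynein motors, which radial spokes and a central pair of microtubules regulate. The transcription factor Foxj1 switches on the genes of motile cilia. In the mouse, ciliated cells line the airways beside club cells, secretory cells that can give rise to them, whereas alveolar type 1 and type 2 cells line the air sacs.

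The 5 libraries held 3567 to 5113 annotated cells and 13240822 to 21451787 unique molecular identifiers (UMIs, each standing for 1 captured RNA molecule). Between TSF libraries a and b, counts per cell type agreed within sampling noise (chi-square 15.2 on 20 df), whereas every other pair of libraries gave a chi-square of at least 68.3. The pair a and b therefore counted as 1 sample. With 1 sample per group, no difference between groups could be tested, and the intervals below cover counting error only. None of the 93 ciliated cell barcodes occurred in another library, and 292 of 23558 barcodes of all cells did.

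The label could not be checked, because the expression of single ciliated cells was not analysed here. The values that follow describe the marker genes in the merged cells and in cancer cells only. The markers set for the label were Foxj1, Ccdc153, a coiled-coil protein gene, and Tmem212, a transmembrane protein gene. Foxj1 lies at chr11:116330704-116335399 on the minus strand, Ccdc153 at chr9:44240676-44247306 on the plus strand and Tmem212 at chr3:27866066-27896368 on the minus strand (GRCm38, GENCODE M21), and all 3 are protein coding. All 3 were among the 1000 highly variable genes on which the authors clustered the cells, which are 4.21% of the 23771 genes. Of 103 genes of cilia or markers of ciliated cells that could be matched, 12 (11.7%) were highly variable. Most of the 12 were on the list as further markers of ciliated cells, 9 of 22 (40.9%). The rest were 2 of 14 axonemal dynein genes and 1 of 7 transcription factors. The 11.7% thus says little about genes of the cilium itself. Besides the 3 markers the 12 were the axonemal dynein heavy chains Dnah6 and Dnah12, the dynein light chain Dynlrb2, and Tppp3, Fam183b, Sec14l3, 1110017D15Rik, Cyp2s1 and Cdkn1c. None of the 9 dynein assembly genes, 5 radial spoke genes, 8 central pair genes or 16 intraflagellar transport genes was highly variable. That choice was made over merged cells that include 2 libraries not used here, so it does not say in which cells the genes were high. In 4T1 cancer cells, which lack motile cilia, Ccdc153 and Tmem212 had no UMI in any of 139 cells (TSF, day 16) or 29 cells (CM, day 16), which allows a UMI in up to 2.16% and 10.3% of cells (3 counts of the total) and sets no limit on the share of cells that express the genes. Foxj1 had a UMI in 3 of the 139 cells and in none of the 29. Of the 103 ciliary genes, 53 had a UMI in at least 1 TSF cancer cell and 39 in at least 1 CM cancer cell, against 60.5% and 49.9% of all genes.

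Ciliated cells were a small share of every library. They numbered 26 in the CM library of day 11, which is 0.696% of its annotated cells (exact Clopper-Pearson 95% interval 0.455 to 1.02%). The TSF libraries of day 11 held 24 and 20 ciliated cells, or 0.469% (0.301 to 0.698%) and 0.416% (0.254 to 0.642%), with a mean of 0.443%. The CM library of day 16 held 14, or 0.392% (0.215 to 0.658%). The TSF library of day 16 held 9, or 0.184% (0.0841 to 0.349%). The CM library of day 11 was thus the highest and the TSF library of day 16 the lowest, and only the intervals of these 2 libraries did not overlap. The share in library a was 1.13 times that in library b (interval 0.597 to 2.15), a difference within counting error.

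**Figure D1:**
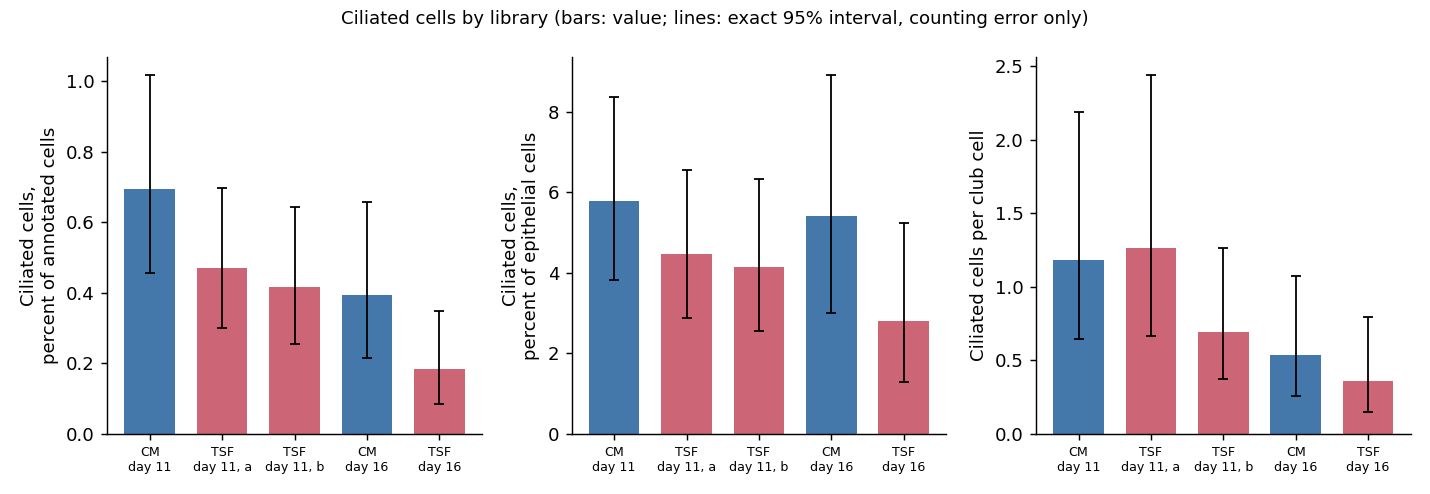
Ciliated cells in the 5 libraries as percent of annotated cells (left), as percent of epithelial cells (middle) and per club cell (right). Bars are the values, lines the exact 95% intervals for counting error, blue CM and red TSF. The TSF library of day 16 has the lowest bar in all 3 panels, at 0.184%, 2.80% and 0.36.

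The first comparison asked whether pretreatment with TSF went with fewer or more ciliated cells. At day 11 the ciliated share in TSF was 0.637 times that in CM (exact conditional interval 0.384 to 1.08), with both TSF libraries below CM. At day 16 it was 0.468 times that in CM (0.179 to 1.16). Both intervals include 1, so a difference was not detectable with these numbers of cells. Of the 21 cell types, 3 (14.3%) had an interval below 1 at day 11 and 5 (23.8%) at day 16, and ciliated cells were not among them on either day. The ciliated ratio was nevertheless the lowest of the 21 at both days, on few cells. Other epithelial types were also mostly below 1. At day 11 and day 16 club cells stood at 0.829 and 0.701, and alveolar type 1 cells at 0.773 and 0.825. Alveolar type 2 cells stood at 0.899 and 1.04. All of these intervals include 1 and overlap those of ciliated cells, so a low ratio was not particular to ciliated cells.

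The second comparison was between days, which here cannot be told apart from the age of the mice. In CM lungs the ciliated share at day 16 was 0.564 times that at day 11 (0.272 to 1.12). Among the 21 types, 5 (23.8%) had an interval below 1 in this comparison, ciliated cells not among them. In TSF lungs it was 0.415 times (0.178 to 0.860), with an interval below 1, as for 8 of the 21 types (38.1%). These comparisons share libraries with those between TSF and CM and are not independent of them.

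How low the ciliated share of TSF lungs at day 16 stood depended on what it was divided by. Neutrophils took 28.7% of the annotated cells in the TSF library of day 16 and 4.40% at day 11. Other types went both ways, with endothelial cells at 0.534 and fibroblasts at 1.03 times their share of day 11. Whether neutrophils lowered the ciliated share was not tested. Without granulocytes the ratio of day 16 to day 11 in TSF was 0.558 (0.239 to 1.16), among non-immune cells 0.567 (0.243 to 1.18), and among epithelial cells 0.650 (0.278 to 1.35), and these intervals include 1. Without library a, so against library b alone, it was 0.442 (0.177 to 1.01), and without library b it was 0.392 (0.160 to 0.873). The ratio of TSF to CM at day 16 rose in the same way, to 0.621 without granulocytes (0.237 to 1.54). In CM lungs the choice of epithelial cells mattered most, and moved the ratio of day 16 to day 11 to 0.936. Most epithelial cells were alveolar type 2 cells, with 310 of 450 in CM at day 11 and 136 of 259 at day 16. The share of alveolar type 2 cells in annotated cells was itself lower at day 16, at 0.460 times in CM (0.373 to 0.564) and 0.532 times in TSF. A ratio near 1 among epithelial cells therefore does not show a steady number of ciliated cells.

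**Figure D2:**
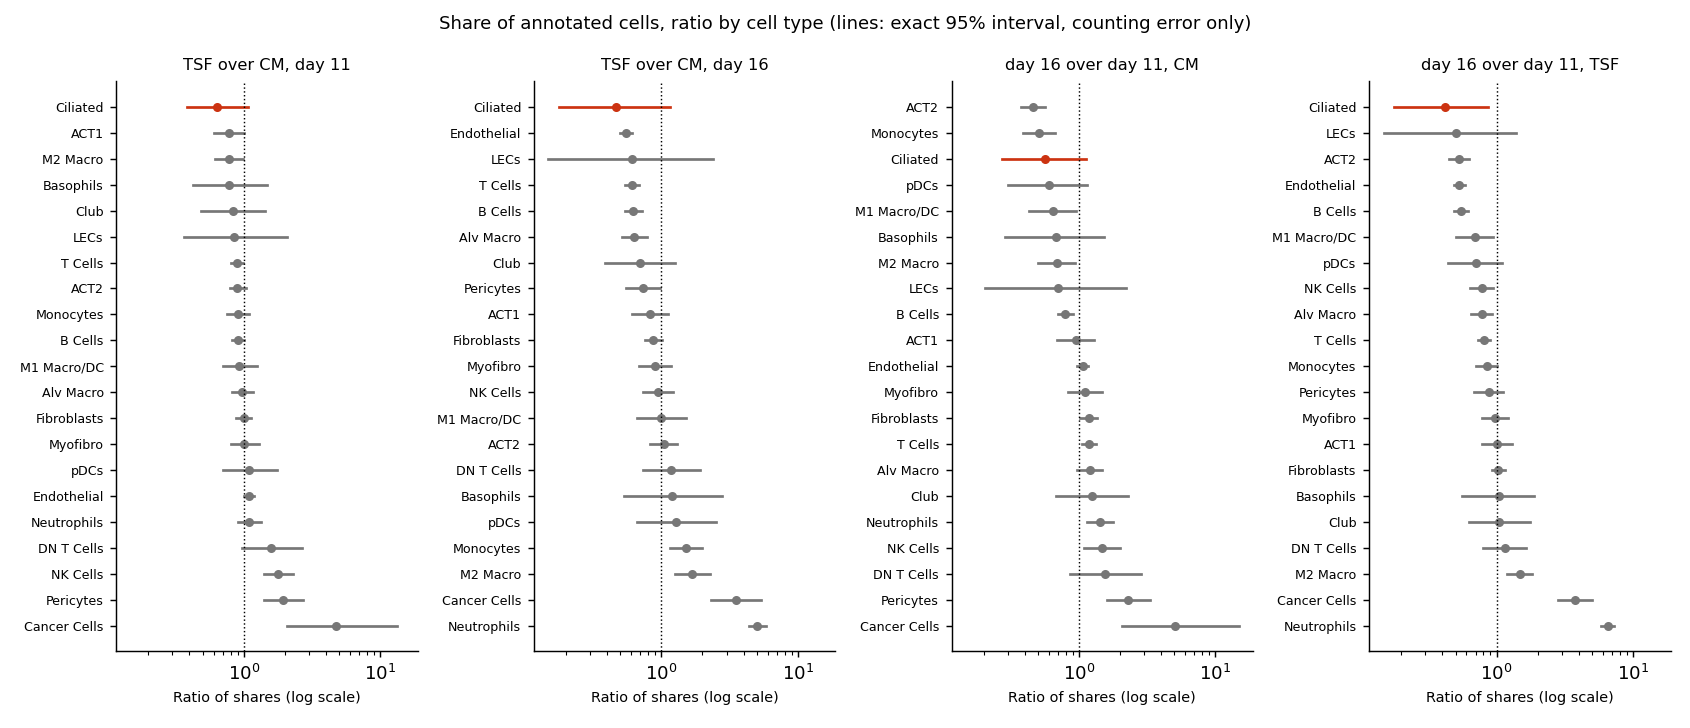
Ratio of each cell type's share of annotated cells in the 4 comparisons, on a log scale, with ciliated cells in red and the other 20 types in gray, and exact 95% intervals for counting error as lines. Ciliated cells stand at the top, with the lowest ratio, in 3 panels and below 2 other types in the comparison of days in CM, and their interval lies below 1 only in the comparison of days in TSF (0.415).

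Set against epithelial cells alone, which are ciliated, club and both alveolar types, ciliated cells took 5.78% in CM at day 11 (26 of 450 cells, 3.81 to 8.35%) and 5.41% in CM at day 16 (14 of 259 cells, 2.99 to 8.90%). They took 4.45% in TSF library a, 4.15% in library b and 2.80% in TSF at day 16 (1.29 to 5.24%). TSF was lower than CM on both days, with ratios of 0.744 at day 11 and 0.517 at day 16, and all of these intervals overlapped.

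Club cells, the airway neighbours of ciliated cells, had about the same share on both days in TSF lungs. Their share at day 16 was 1.05 times that at day 11 in TSF (0.623 to 1.75). There were 26 ciliated to 22 club cells in CM at day 11, or 1.18 ciliated cells per club cell (0.644 to 2.19). In TSF at day 11 the numbers were 24 to 19 in library a (1.26) and 20 to 29 in library b (0.690). At day 16 they were 14 to 26 in CM (0.538, interval 0.260 to 1.07) and 9 to 25 in TSF (0.36, interval 0.148 to 0.797). Ciliated cells were thus fewer than club cells in both libraries of day 16 and also in TSF library b of day 11. The TSF library of day 16 had the fewest per club cell, and only there did the interval lie below 1.

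The odds of ciliated over club at day 16 were 0.393 times those at day 11 in TSF (0.146 to 0.994) and 0.456 times in CM (0.175 to 1.17). The TSF interval lay just below 1, and did so no longer when library b stood alone for day 11 (0.522, interval 0.177 to 1.48) or when cells under 1500 UMIs were left out (0.503, interval 0.171 to 1.39). Against library a alone it was 0.285 (0.0949 to 0.827). Under 1500 UMIs lay 8 of the 25 club cells of the TSF library of day 16 and 1 of its 9 ciliated cells. Between TSF and CM the odds ratio was 0.776 at day 11 (0.362 to 1.65) and 0.669 at day 16 (0.215 to 2.02). At day 11 library a alone gave 1.07 and library b alone 0.584, on opposite sides of 1.

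The authors' finer clusters split the ciliated cells into a main group and a smaller one. Sub-cluster A.7 held 68 of the 93 cells, A.38 held 24 (25.8%, 17.3 to 35.9%) and A.81 held 1. No cell of another type was in these 3 of the 72 sub-clusters, which were made from epithelial cells with 502 doublets and 5 unknown cells. The authors refined the types on such sub-clusters, so this follows in part from the naming and does not measure purity. The clusters are numbered and not named for a state, and the genes that set them apart were not analysed here.

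A.7 numbered 21 cells in CM at day 11, 18 and 16 in TSF libraries a and b, 9 in CM at day 16 and 4 in TSF at day 16. A.38 numbered 5, 6, 4, 5 and 4 in the same order. The main group therefore varied from 4 to 21 cells between libraries and the smaller one from 4 to 6. A.38 made up 44.4% of the ciliated cells in TSF at day 16 (4 of 9, 13.7 to 78.8%) and 19.2% in CM at day 11 (5 of 26, 6.55 to 39.4%), and these intervals overlap widely. With A.7 alone counted as ciliated, the ratio of day 16 to day 11 was 0.239 in TSF (0.0614 to 0.668) and 0.449 in CM (0.181 to 1.02), which was tried after the data were seen.

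On the authors' 2-dimensional map (UMAP, which places cells with like expression near each other), A.7 and A.38 lay apart. Before sub-clustering, 67 of the 68 A.7 cells were in fine cluster 129, which also held 3 club cells. All 24 A.38 cells were in fine cluster 130, which held 41 club cells and only 25 ciliated cells. On the map, 21 of the 24 A.38 cells lay nearer to the median point of the club cells of cluster 130 than to that of the A.7 cells. Of the 10 nearest neighbours of each cell, 94.6% were ciliated for A.38 and 96.6% for A.7, with club cells as the rest. Neither fine cluster held a cell called a doublet or unknown. Distances on such a map are not to scale. The authors clustered cells in the plane of a UMAP and then named the clusters by type. Near neighbours therefore share a cluster and a type in part by construction, so these are descriptions and no check of the labels.

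**Figure D3:**
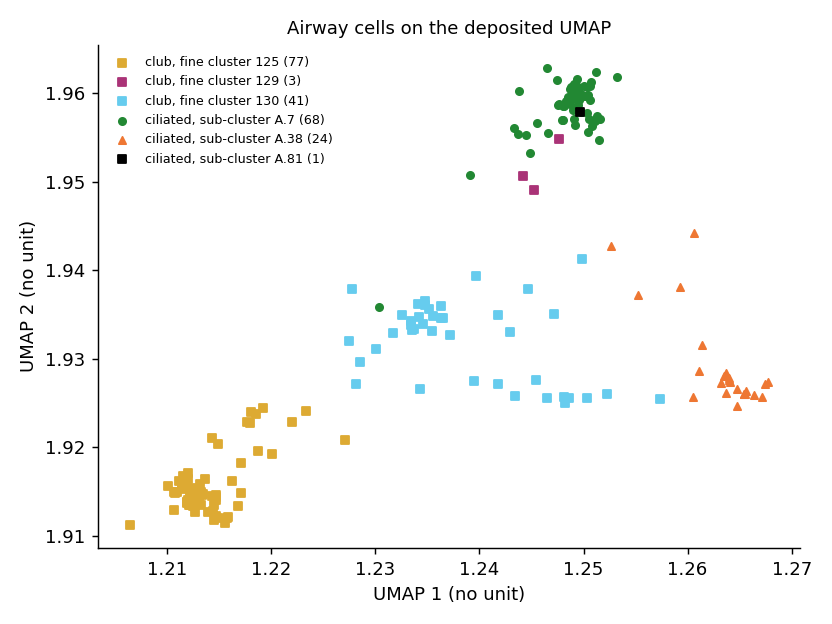
Position of the 93 ciliated and 121 club cells on the authors' UMAP, whose axes have no unit. The A.38 cells (orange triangles) form a group of their own beside the 41 club cells of fine cluster 130 (light blue) and away from the A.7 cells (green).

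Ciliated cells held more UMIs than most cells of these lungs. Their median was 5605 UMIs and 2487 genes per cell over all libraries, with a range of 1189 to 21448 UMIs and 746 to 5997 genes. Only 3 of 93 (3.23%) had under 2000 UMIs, against 43.1% of all annotated cells, 15.7% of club cells and 7.39% of alveolar type 2 cells. Among the 21 cell types, ciliated cells ranked from 3 to 6 by median UMIs and 2 or 3 by median genes in every library.

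For their number of UMIs, ciliated cells showed many different genes. Among cells with 4000 to 8000 UMIs, a band chosen after the data were seen, ciliated cells had a median of 2502 genes (52 cells, median 5717.5 UMIs). In the same band club cells had 1742 genes (17 cells, median 6037 UMIs), alveolar type 2 cells 1614.5 (778 cells, median 5623 UMIs) and alveolar type 1 cells 2213 (168 cells, median 5454 UMIs). The club cells were mixed. Those of fine clusters 129 and 130, which also held the ciliated cells, had 1947, 2344, 2754, 2947 and 3010 genes. Their UMIs were 7447, 5754, 7549, 6682 and 7610 in the same order, all above the ciliated median of the band. Gene counts above the club median were thus seen in these club cells, but at more UMIs than the median ciliated cell. Among whole cell types with at least 5 cells in the band, only cancer cells had a higher median than ciliated cells. It was 2667 genes in 8 cells with a median of 7348.5 UMIs.

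Within each library, counting types with at least 5 cells in the band, ciliated cells had the highest median of genes in all 5. The medians were 2581 in CM at day 11 (16 cells), 2448 in TSF library a (14 cells), 2455 in library b (12 cells), 2344 in CM at day 16 (5 cells) and 2323 in TSF at day 16 (5 cells). The next type was alveolar type 1 cells at 2237 in CM at day 11 and endothelial cells at 2243 and 2252.5 in TSF libraries a and b. At day 16 the lead was small, with endothelial cells at 2324.5 in CM and alveolar type 1 cells at 2276 in TSF, and the ranges of cells overlapped in all 5 libraries. Over all cells the medians of genes per 1000 UMIs were 441 for ciliated and 188 for club cells, whose median of 11953 UMIs was higher. The same measure was 299 for alveolar type 2 cells, 476 for alveolar type 1 cells and 451 for all annotated cells. Alveolar type 1 cells and all annotated cells had fewer UMIs, with medians of 3406 and 2259. Without matched UMIs, ciliated cells therefore did not stand high by this measure.

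**Figure D4:**
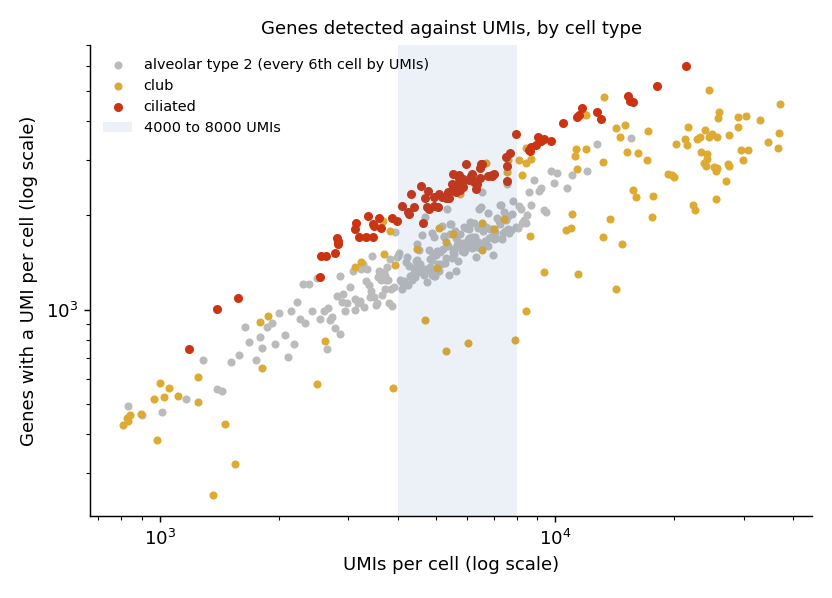
Genes with a UMI against UMIs per cell, both on log scales, for all 93 ciliated cells (red), all 121 club cells (yellow) and every 6th of the 1380 alveolar type 2 cells by UMIs (gray). The shaded band is 4000 to 8000 UMIs, where ciliated cells lie at a median of 2502 genes, above most alveolar type 2 cells (1614.5) and club cells (1742).

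Depth differed between libraries, most in CM at day 16. In CM at day 11 ciliated cells had 2820 to 15429 UMIs with a median of 5829. The medians were 5179.5 (2637 to 12728) in TSF library a, 5470 (1397 to 8659) in library b and 5089 (1189 to 8923) in TSF at day 16. In CM at day 16 the median was 9549.5 (4329 to 21448), which is 1.64 to 1.88 times the other medians, while over all annotated cells this library was 1.15 to 1.25 times as deep. Ciliated cells with 10000 UMIs or more numbered 6 of 14 there, 2 of 26 in CM at day 11, 3 of 24 in TSF library a and 0 in the 2 remaining libraries.

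The deep cells of CM at day 16 were in both sub-clusters, 4 of 5 in A.38 and 2 of 9 in A.7. The A.38 cells of that library had 5529, 13078, 15331, 15749 and 18091 UMIs, whereas the 19 A.38 cells of the other libraries had at most 9056. Median genes followed, at 3493.5 in CM at day 16 and 2282.5 to 2566 elsewhere. Whether single cells or pairs of cells gave these counts was not tested.

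Mitochondrial transcripts took a larger share in ciliated cells than in most others. With the cells of all libraries pooled, the median was 3.84% of UMIs in ciliated cells, the highest of the 21 types. Alveolar type 2 cells came next, at 3.68%. Within libraries, ciliated cells were highest only in TSF library b and in CM at day 16. Alveolar type 2 cells were higher in CM at day 11 (3.37%), TSF library a (3.47%) and TSF at day 16 (3.93%). Club cells had 5.85% in TSF at day 16. More than 5% was reached by 36 of 93 ciliated cells (38.7%, 28.8 to 49.4%), against 8.77% of all annotated cells, 29.8% of club cells and 25.8% of alveolar type 2 cells. By library the medians of ciliated cells were 3.29% in CM at day 11, 3.29% in TSF library a, 5.11% in library b, 5.11% in CM at day 16 and 3.84% in TSF at day 16. Libraries a and b, which are counted as 1 sample, were as far apart as any other pair, so no difference between groups can be read from them.

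**Figure D5:**
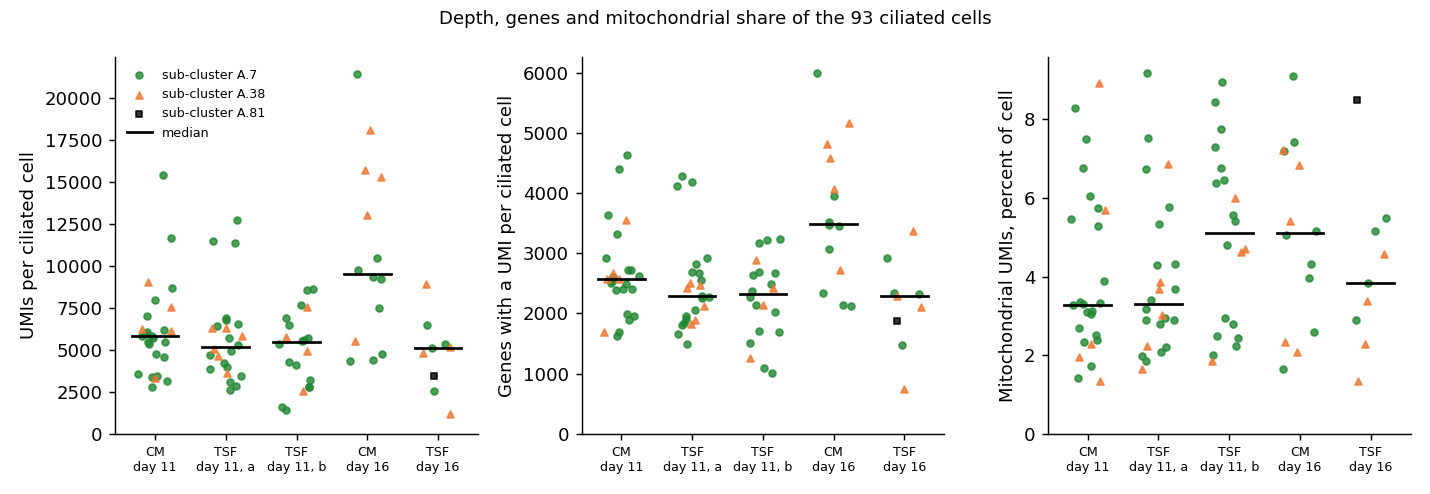
UMIs (left), genes with a UMI (middle) and percent of UMIs from mitochondrial genes (right) in each of the 93 ciliated cells, by library, with the sub-cluster as color and the median as a line. The CM library of day 16 stands highest in UMIs (median 9549.5) and genes (3493.5), and the mitochondrial medians of TSF libraries a and b differ (3.29% and 5.11%).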

How the data were processed

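Lungs were dissociated, and 5' single-cell libraries (10x Genomics) were sequenced by the authors. Per the labels, reads were mapped to mm10 (GRCm38.p6) and processed with Cell Ranger and Seurat 4.1.0. The authors corrected counts for ambient RNA with SoupX, clustered cells, named types by hand from markers, and marked sub-clusters with mixed markers as doublets, which they compared with scDblFinder scores. Their deposited cell table gives UMI counts, genes and mitochondrial percent per cell, and its lowest values are 800 UMIs and 202 genes and its highest mitochondrial share 9.99%, after the authors' own filters. It also holds 11943 cells of 2 libraries outside the samples described, which were not used. A deposited table of day 16 cancer cells gives, per gene, how many cells had a UMI, their percent, and the mean CP10k (UMIs per 10000). Its log2 fold changes, p-values and q-values, and the enrichment scores of another table, are the authors' comparisons and were not used.

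Here cells were counted by type and library in Python 3.11.15 with scipy 1.17.1, pandas 2.3.3, numpy 2.4.6 and matplotlib 3.10.9. Shares have exact Clopper-Pearson intervals at 95%, and ratios exact conditional intervals on pooled counts of libraries a and b. The ratio uses the mean of both shares. Where no cell had a UMI, a limit of 3 counts over all cells is given. Ratio intervals were tested on simulated data, and the coverage of share intervals was summed exactly. Cells are not replicates, so no test between groups was made. The members and gene lists were chosen with earlier results of these data known. Named genes were the 3 markers and ciliary genes with a UMI in most cancer cells of either library, and the other highly variable ciliary genes were named after their values were seen. The ciliary list had 106 entries, of which 103 were matched (Dnai1 and Dnai2 as Dnaic1 and Dnaic2), 1 repeated a gene, and Pih1d3 and Rsph6a were named only. Alternatives were other denominators, UMI and mitochondrial filters, and leaving out library a or b.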

Additional observations from a re-analysis of the deposited data

Results flagged for a closer look

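The median mitochondrial percent of ciliated cells was higher in TSF than in CM at day 11 and lower at day 16, which was not tested. At day 11 TSF library a stood 0.00097 percentage points and library b 1.83 points above CM, and at day 16 TSF stood 1.28 points below CM (a difference of -1.28), and the difference of TSF minus CM at day 16 less that at day 11 (mean of a and b) was -2.19 percentage points. Library a was nearly equal to CM and far from library b, so no difference between the groups can be read from these medians.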

How the results depend on the processing

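The ratio of ciliated shares stayed below 1 under every setting tried. For TSF over CM it ran from 0.599 to 0.744 at day 11 and 0.324 to 0.721 at day 16, and every interval included 1. For day 16 over day 11 it ran from 0.378 to 0.936 in CM and 0.239 to 0.650 in TSF. The lowest values of 0.324 and 0.239 came from A.7 alone. All settings reuse the same few ciliated cells, so their like direction is not independent support for a decrease. The interval of the TSF ratio of days came to include 1 without granulocytes (0.558), among non-immune cells (0.567), among epithelial cells (0.650), at up to 5% mitochondrial UMIs (0.446) and without library a (0.442, interval 0.177 to 1.01). It stayed below 1 without library b, so the ratio ran from 0.392 to 0.442 when b or a was left out. In CM the interval of the ratio of days fell below 1 in cells with at least 2000 UMIs (0.486, interval 0.235 to 0.966). The odds of ciliated over club cells, day 16 over day 11 in TSF, lost their interval below 1 at 1500 UMIs (0.503), 2000 UMIs (0.504), 5% mitochondrial UMIs (0.760) and without library a (0.522). They ran from 0.285 to 0.522 when b or a was left out. For TSF over CM at day 16 the 5% mitochondrial limit turned these odds to 1.64 (0.337 to 7.85). The cause was not tested.

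Shares themselves moved with the denominator. Among non-immune cells they were 1.44% in CM and 0.933% and 0.831% in TSF libraries a and b at day 11, and 0.803% in CM and 0.501% in TSF at day 16. Among cells with at least 2000 UMIs they were 1.23% in CM at day 11, 0.892% in library a and 0.691% in library b. At up to 5% mitochondrial UMIs they were 0.188% in CM at day 16 and 0.227% in library b, and with A.7 alone 0.0817% in TSF at day 16. In a band of 3000 to 6000 UMIs the median of genes was 2405.5 in CM at day 11 and 2054 in library a. In every band and filter that left at least 5 ciliated cells in a library they ranked first by median genes. Of 103 ciliary genes, 53 were detected in TSF and 39 in CM cancer cells, against 60.5% and 49.9% of all genes. With a UMI in at least 5% of cells they numbered 32 in TSF and 30 in CM. The share of all genes at that limit was not counted, so 32 and 30 are no result about ciliary genes. When only axonemal dynein, radial spoke and central pair genes were counted, 8 of 27 were detected in TSF and 5 of 27 in CM.

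The few ciliated cells, 9 to 26 per library, limit every ratio. No further epithelial type is named in the table, so that alternative gave no value. No paired analysis was possible because no replicate number in the labels links a library of one group to a library of another. The bands of UMIs, the A.7 and epithelial ratios and the settings for the ciliated to club odds between days were chosen after seeing the data.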

Other observations

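UMIs of ciliary genes were also counted in the cancer cells of day 16, whose libraries were made from the same cell suspensions as the ciliated cells. The part of stray RNA in these UMIs was not tested. The cancer cells were deep, with medians of 26615 UMIs over the 139 TSF cells and 27679 UMIs over the 29 CM cells. All 16 genes of intraflagellar transport, which carries cargo along primary as well as motile cilia, had a UMI in both libraries. Of the genes of motility, 4 of 14 axonemal dynein, 2 of 5 radial spoke and 2 of 8 central pair genes had a UMI in TSF, and 2, 1 and 2 of them in CM, beside 60.5% and 49.9% of all genes.

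The ciliary genes with a UMI in most cancer cells of either library were Tuba1a and Tubb4b (tubulins), Ruvbl1 and Ruvbl2 (ATPases that help assemble dynein and other complexes), Ift20, Ift57, Ift74, Ift172 and the kinesin Kif3a of intraflagellar transport, Hspa4l (a chaperone) and Gas8 (a subunit of the nexin-dynein regulatory complex). Tubb4b had a UMI in 90.65% of TSF and 93.10% of CM cancer cells, and Gas8 in 47.48% and 58.62%.

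Over the 93 ciliated cells, Spearman's rho of UMIs and mitochondrial percent was -0.07, a description over cells that share libraries. By library rho was -0.12 in CM at day 11 (26 cells), 0.06 in CM at day 16 (14 cells), 0.26 in TSF library a (24 cells), -0.66 in TSF library b (20 cells) and 0.37 in TSF at day 16 (9 cells).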
